A study of Mus musculus with 57 samples.

Results

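*Sox17*, *Sox7* and *Sox18* are the SOXF members of the SOX family, and binding around all 3 genes was followed in mouse embryonic stem (ES) cells as GATA6 was switched on. Members were chosen by name, and every peak whose summit lay within 100 kb of the transcription start site (TSS) of 1 of the 3 genes was taken from 30 peak lists. This gave 317 of 775358 peaks, 123 near *Sox17*, 127 near *Sox7* and 67 near *Sox18*. Summits were joined into sites where neighbouring summits lay at most 250 bp apart, which gave 84 sites (25, 35 and 24) of 218737 in the genome. The lists came from CUT&RUN, in which an antibody directs a nuclease to a protein on chromatin and the released fragments are sequenced.

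SOXF proteins are transcription factors that bind DNA through an HMG box and bend it. SOX17 and SOX7 mark primitive endoderm (PrE), the extra-embryonic layer that forms beside the epiblast in the blastocyst under the control of GATA6, and all 3 SOXF proteins also act in endothelium, where SOX18 is known for its role in lymphatic vessels. SOX2, a SOXB factor that maintains pluripotency with NANOG, reads nearly the same short DNA motif as the SOXF proteins. GATA4, a relative of GATA6, and SOX17 are made in cells that enter the PrE fate.

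All cells were KH2 ES cells, labelled as strain C57BL/6, that carry the transgene TRE:GATA6-DSREd2, a doxycycline-dependent GATA6 with a red fluorescent reporter. The uninduced cells (0 h) carry it too. Lists for GATA6 cover 0, 2, 4, 8 and 48 h, those for the pluripotency factors NANOG and SOX2 the first 4 of these times, and those for GATA4 and SOX17 a single time of 24 h, with 2 replicate lists each. Uninduced cells were kept in 2i medium, whereas induced cells were in serum medium with doxycycline, which was taken away after 12 h for the 24 and 48 h samples, so a difference from 0 h includes the change of medium. All lists come from 1 cell line with a single inserted transgene, and the study describes its replicate experiments as independent without naming separate cultures, so p-values measure the spread between these lists.

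The GATA6 lists for 4, 8 and 48 h do not carry the names of their own records. The lists recorded for 4 h have peak names of 48 h, those recorded for 8 h have names of 4 h, and those recorded for 48 h have names of 8 h. Time points here follow the peak names, so the GATA6 values given for 4, 8 and 48 h are those of 8, 48 and 4 h by the record. Counts and shares over 48 h are given both ways where the record is named. All other statements on 4, 8 and 48 h, also those in the figures, hold by the peak names alone. Both GATA6 lists of 0 h stood apart, with 86 and 882 peaks from libraries with a genome background of 0.287 and 0.315 fragments per base, against 0.928 to 1.34 in the induced GATA6 libraries. The induced GATA6 lists shortened from 79358 and 62683 peaks at 2 h to 5933 and 9767 at 48 h. Background lay between 0.29 and 0.692 for SOX2, between 0.865 and 1.31 for NANOG, and at 1.23 and 1.55 for SOX17.

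In the GRCm38 (mm10) assembly *Sox17* lies on the minus strand of chromosome 1 with its TSS at 4497354, *Sox7* on the plus strand of chromosome 14 with its TSS at 63943673, and *Sox18* on the minus strand of chromosome 2 with its TSS at 181671640. Sites are named by their distance from the TSS, positive downstream and negative upstream in the direction of transcription. The surroundings of the genes differ, since the window of *Sox17* touches 2 protein-coding genes, that of *Sox7* 4 and that of *Sox18* 11, each with the SOXF gene included. A SOXF gene had the nearest protein-coding TSS for 16 of 25 sites near *Sox17*, 10 of 35 near *Sox7* and 2 of 24 near *Sox18*, so most sites around *Sox18* are closer to other genes. A site had a factor where a summit of that factor was among those joined, so a broad peak counts at its summit alone. Of the 84 sites, 40 were intergenic, 46 held a single peak, and 35 had a peak in both lists of at least 1 factor and time.

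The 7 stretches of 201 bases below come from sites with strong, lasting or late binding of GATA6, GATA4 or SOX17 among those described here. They are not all of the strongest or longest-lasting sites near each gene. Each is the plus strand, 5′ to 3′, centred on the summit of the GATA6 or SOX17 peak with the lowest q-value. Capitals mark AGATAA or AGATAG or TGATAA or TGATAG on either strand in stretches centred on GATA6, and ACAATG or ACAAAG on either strand in the stretch centred on SOX17.
Sox17 +72.7 kb (GATA6), chr1:4424580-4424780: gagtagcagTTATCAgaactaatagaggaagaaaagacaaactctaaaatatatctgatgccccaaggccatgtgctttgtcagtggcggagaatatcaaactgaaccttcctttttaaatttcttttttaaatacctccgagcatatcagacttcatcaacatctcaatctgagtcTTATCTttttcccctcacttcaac
Sox17 +22.7 kb (GATA6), chr1:4474512-4474712: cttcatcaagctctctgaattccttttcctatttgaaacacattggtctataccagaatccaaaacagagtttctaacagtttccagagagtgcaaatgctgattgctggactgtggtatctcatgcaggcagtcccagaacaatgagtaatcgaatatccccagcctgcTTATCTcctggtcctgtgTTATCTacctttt
Sox17 −40.3 kb (GATA6), chr1:4537543-4537743: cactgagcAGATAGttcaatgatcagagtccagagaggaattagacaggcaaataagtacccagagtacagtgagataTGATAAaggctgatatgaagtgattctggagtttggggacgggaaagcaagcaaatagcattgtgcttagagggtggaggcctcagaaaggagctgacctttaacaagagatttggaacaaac
Sox17 −74.5 kb (SOX17), chr1:4571792-4571992: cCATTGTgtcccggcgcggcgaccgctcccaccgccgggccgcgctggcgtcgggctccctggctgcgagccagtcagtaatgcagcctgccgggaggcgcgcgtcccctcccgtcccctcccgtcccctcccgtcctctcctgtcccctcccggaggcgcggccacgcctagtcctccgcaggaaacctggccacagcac
Sox7 +58.1 kb (GATA6), chr14:64001687-64001887: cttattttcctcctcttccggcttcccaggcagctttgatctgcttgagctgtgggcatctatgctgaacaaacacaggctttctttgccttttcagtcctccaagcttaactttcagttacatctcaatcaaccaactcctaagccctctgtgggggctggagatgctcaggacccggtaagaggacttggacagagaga
Sox7 +91.8 kb (GATA6), chr14:64035352-64035552: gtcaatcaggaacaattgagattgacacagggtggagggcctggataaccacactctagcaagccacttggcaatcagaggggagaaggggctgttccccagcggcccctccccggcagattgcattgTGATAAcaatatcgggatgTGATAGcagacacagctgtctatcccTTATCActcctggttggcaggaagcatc
Sox18 −52.0 kb (GATA6), chr2:181723552-181723752: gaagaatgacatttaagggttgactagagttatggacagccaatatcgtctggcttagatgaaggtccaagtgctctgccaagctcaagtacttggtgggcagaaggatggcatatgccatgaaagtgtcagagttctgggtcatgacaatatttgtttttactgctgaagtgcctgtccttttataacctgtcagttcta
The stretches at *Sox7* +58.1 kb and *Sox18* −52.0 kb have no capitals, because none of the 4 GATA hexamers occurs there, while *Sox7* +91.8 kb holds 3. The *Sox17* −74.5 kb stretch is unlike the others in base composition, with 75.1% G and C against 37.3% at *Sox17* +72.7 kb. A match of letters is a description of the stretch and not a test of binding.

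GATA6 peaks were present near all 3 genes at 2 h and none at 0 h, and at 48 h both lists had them near *Sox17* and *Sox7* but only 1 list, with 1 peak, near *Sox18*. Near *Sox17* the lists held 0 and 0 peaks before induction, then 7 and 7 after 2 h, 6 and 7 after 4 h, 6 and 10 after 8 h, and 5 and 7 after 48 h. Near *Sox7* they held 0 and 0, then 8 and 8, 8 and 11, 8 and 9, and 4 and 4 at the same times. Near *Sox18* they held 0 and 0, then 5 and 6, 3 and 3, 3 and 3, and 1 and 0. The 2 h lists lay above the 0 h lists for every gene, and the 48 h lists lay below all earlier induced lists for *Sox7* and *Sox18* but overlapped them for *Sox17*. By the record these lowest lists are those of 4 h, and the 48 h lists held 8 and 9 peaks near *Sox7* and 3 and 3 near *Sox18*.

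The change over the 5 time points was tested with a two-sided exact permutation test of F over all 113400 arrangements of the 10 lists, whose smallest possible p is 0.00106. It gave F = 9.52 with an exact p = 0.0952 for *Sox17*, F = 31.25 with an exact p = 0.0159 for *Sox7*, and F = 49.25 with an exact p = 0.00952 for *Sox18*. After adjustment over the 9 tests of 3 factors and 3 genes by the method of Benjamini and Hochberg the permutation p was 0.286 for *Sox17* and 0.0714 for both *Sox7* and *Sox18*, so none passed 0.05. The differences between 2 and 0 h were 7, 8 and 5.5 peaks, and the part of the low 0 h depth in them was not tested. When peaks had to reach a −log10 q of 5, these differences were 2.5, 6.5 and 3.5 peaks. The adjusted permutation p over the 5 time points was then 0.0476 for all 3 genes. In a window of 50 kb the differences were 4, 4.5 and 2 peaks, with an adjusted permutation p of 0.557, 0.143 and 0.571. Left out singly, replicate 1 of 4 h brought the adjusted permutation p to 0.0286 for *Sox7* and 0.0429 for *Sox18*, replicate 1 of 8 h to 0.0476 for *Sox17* and 0.0429 for both others, and replicate 2 of 48 h to 0.0286 for *Sox18*. In all other cases of a list left out the adjusted permutation p stayed at 0.0714 or above.

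Without the 0 h lists, a comparison added after the values were seen, the 4 induced time points differed near *Sox18* with an exact permutation p = 0.0286 and an adjusted p = 0.0857 over the 3 genes, where the mean went from 5.5 peaks at 2 h to 0.5 at 48 h. For *Sox7* the exact permutation p was 0.143 (adjusted 0.214), with means of 8 and 4 peaks. For *Sox17* it was 0.857 (adjusted 0.857), with means of 7 and 6 peaks. Whole lists became shorter over the same time. Per 10000 peaks of a list, the difference between 48 h and 2 h was positive, at 6.80 for *Sox17* and 4.28 for *Sox7* (both adjusted permutation p = 0.0143), and was 0.0491 for *Sox18* (adjusted permutation p = 0.867). These p-values belong to the 4 induced time points together. By the sample record, under which the 48 h lists hold 28676 and 30234 peaks, the difference between 48 h and 2 h was 1 peak for *Sox17*, 0.5 for *Sox7* and -2.5 for *Sox18*.

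**Figure D1:**
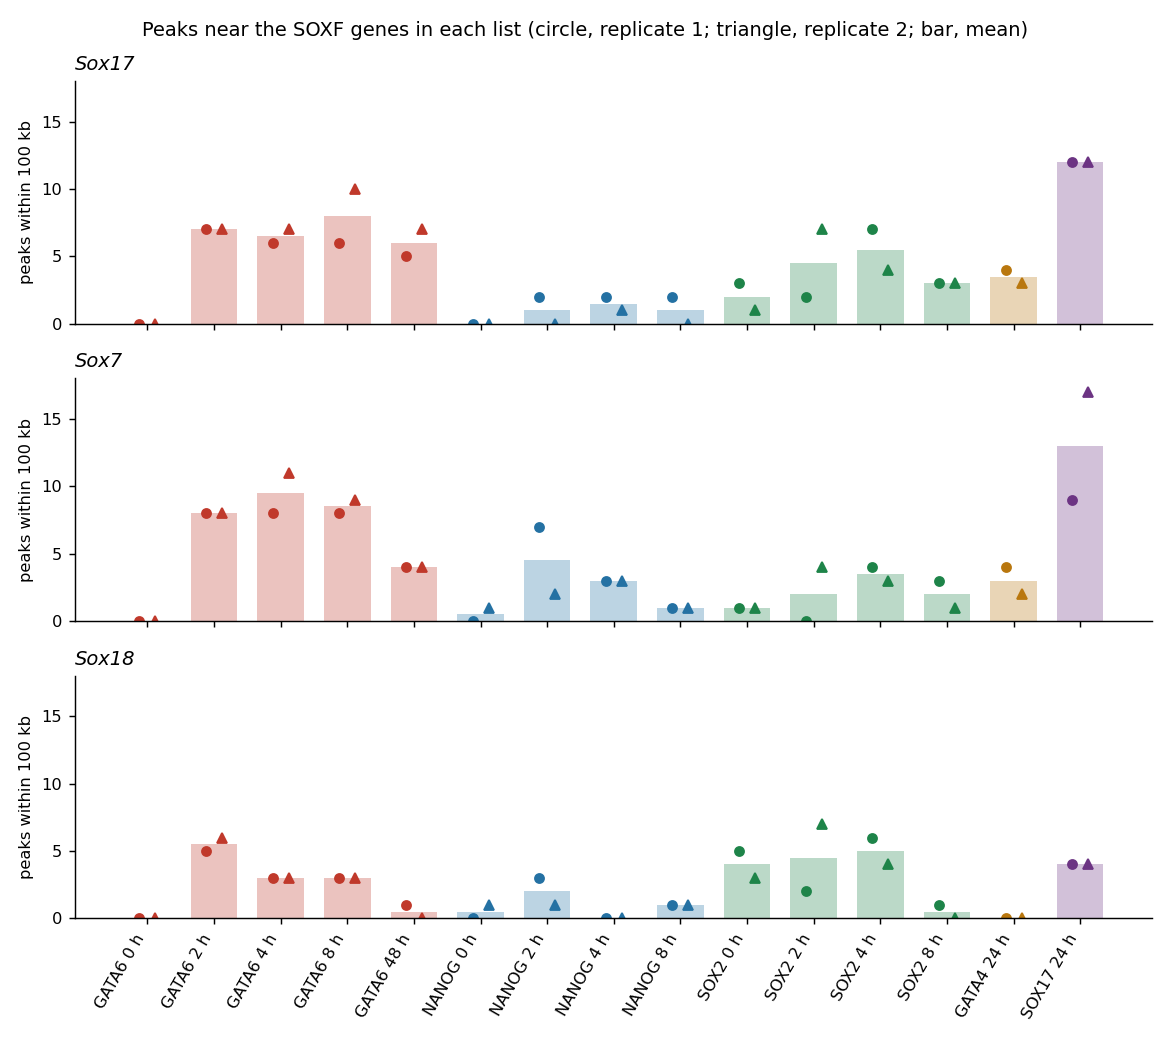
Number of peaks within 100 kb of the TSS in each list, for *Sox17*, *Sox7* and *Sox18*, by factor and time after induction. Circles are replicate 1, triangles replicate 2 and bars their mean. GATA6 goes from 0 peaks at 0 h to 7, 8 and 5.5 on average at 2 h. At 48 h by the peak names a mean of 6 is left near *Sox17*, 4 near *Sox7* and 0.5 near *Sox18*.

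The background of all 21911 protein-coding genes puts these counts in place. A gene was called bound when both lists of a group had a summit within 100 kb of its TSS. All 3 SOXF genes were bound by GATA6 at 2, 4 and 8 h, as were 88.2%, 83.9% and 75.0% of all genes, so the presence of GATA6 near them at these times is what most genes show. At 0 h none was, against 0.0456% of genes. At 48 h *Sox17* and *Sox7* were bound, against 35.4% of genes, and by the record all 3 were, against 75.0%. *Sox17* had more GATA6 peaks than 47.6% of genes after 2 h, 59.7% after 4 h, 87.9% after 8 h and 99.4% after 48 h. For *Sox7* the shares were 52.9%, 76.5%, 89.5% and 96.7%. *Sox18* was near the middle or below, with 38.7%, 32.9%, 52.1% and 38.0% in the same order. By the record the order over 2, 4, 8 and 48 h is 47.6%, 99.4%, 59.7% and 87.9% for *Sox17* and 52.9%, 96.7%, 76.5% and 89.5% for *Sox7*, with no steady course, and the highest shares belong to the shortest lists either way.

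Other SOX genes and other genes of the PrE network were set beside them. Of 16 further SOX genes, from *Sox1* to *Sox30*, all 16 were bound by GATA6 at 2 h and 3 at 48 h, with a median of 10.25 peaks at 2 h and 0.25 at 48 h, where the medians of all genes were 7 and 0.5. *Sox2* itself went from 24.5 to 0.5 peaks on average. All 8 PrE genes, among them *Gata4*, *Foxa2* and *Pdgfra*, were bound at both times, with medians of 9.5 and 6 peaks. The SOXF medians were 7 and 4 peaks, and the 48 h means of 6 near *Sox17* and 4 near *Sox7* lay above the highest of the other SOX genes, 1.5 near *Sox13* and *Sox30*, while *Sox18*, at 0.5, did not. By the record 13 of the 16 SOX genes and all 8 PrE genes were bound at 48 h, with medians of 2.5 and 8.5 peaks, where the SOXF median was 8.

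**Figure D2:**
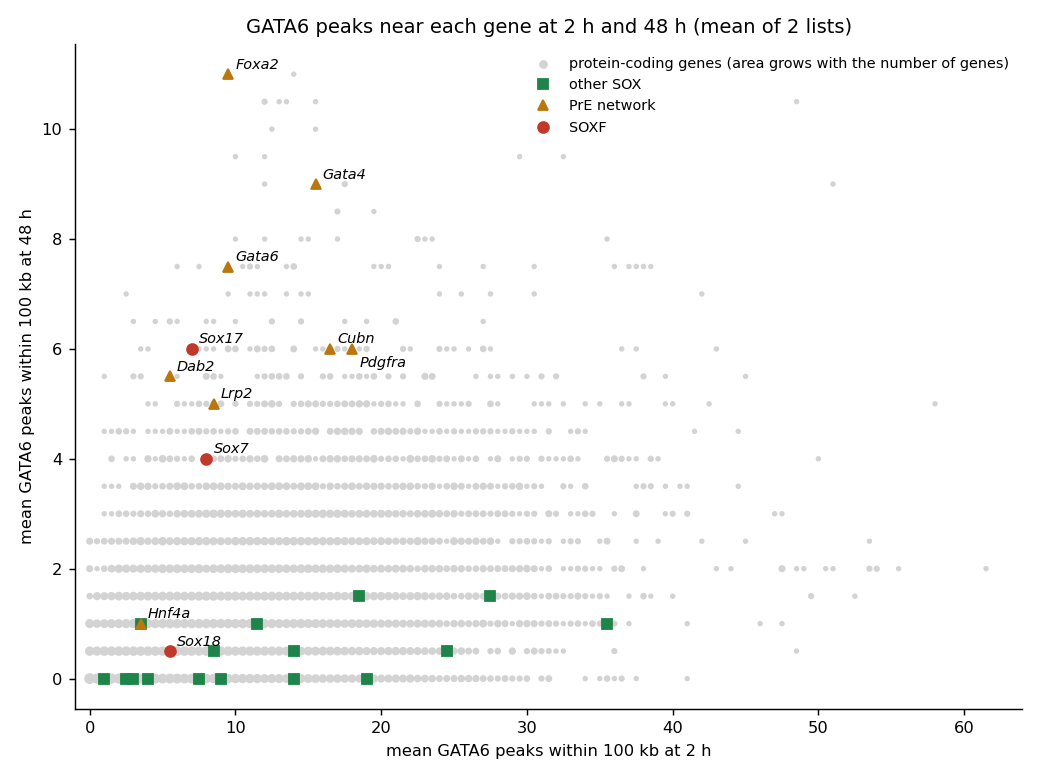
Mean number of GATA6 peaks within 100 kb of the TSS at 2 h (x axis) and at 48 h by the peak names (y axis), each the mean of 2 lists. Grey points are all protein-coding genes, squares 16 other SOX genes, triangles 8 genes of the PrE network and circles the SOXF genes. *Sox17* (7 and 6) and *Sox7* (8 and 4) lie above all other SOX genes on the y axis, *Sox7* below 7 of the 8 PrE genes, and *Sox18* (5.5 and 0.5) lies near the bottom.

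Single sites were then followed through time. GATA6 had a peak in both 2 h lists at 7 sites near *Sox17*, 6 near *Sox7* and 4 near *Sox18*. A peak in both 48 h lists was present at 1, 2 and 0 of these, 3 of 17 in all, against 5.62% of the 44122 such GATA6 sites in the genome. By the sample record the numbers were 3, 6 and 2, against 36.9% in the genome. By the peak names the 3 sites were *Sox17* +72.7 kb, *Sox7* −1.1 kb and *Sox7* +58.1 kb, and all 3 also had GATA6 in both lists at 4 and 8 h.

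The *Sox17* +72.7 kb site lies between genes on chromosome 1, around position 4424684, and is closer to the TSS of *Rp1*, a gene for a photoreceptor protein, than to that of *Sox17*. GATA6 fold enrichment over the local background was 23.1 and 18.1 after 2 h, 27.8 and 32.6 after 4 h, 29.9 and 34.6 after 8 h, and 8.53 and 13.0 after 48 h. Its mean went from 20.6 ± 3.55 over 32.3 ± 3.28 at 8 h to 10.7 ± 3.13 in the last lists (SD, n = 2 each), so the 8 h lists lay above and the 48 h lists below both 2 h lists. These folds rest on 72 and 52 stacked fragments at the 2 h summits and on 22 and 39 at 48 h. Within its list the site ranked 281 of 28676 and 252 of 30234 peaks by fold at 8 h.

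The *Sox7* +58.1 kb site lies in an intron of *Rp1l1*, a relative of *Rp1*, around position 64001808 of chromosome 14. Its GATA6 folds were 22.3 and 21.6 after 2 h, 30.4 and 33.1 after 4 h, 22.6 and 28.9 after 8 h, and 21.7 and 31.1 after 48 h, from 77 to 136 fragments. The lists of all 4 times were of similar height at this site, and the 48 h value of 26.4 ± 6.65 overlapped that of 2 h, 21.9 ± 0.540 (SD, n = 2). At 48 h it ranked 75 of 5933 and 23 of 9767 peaks. Over 2207 sites of the genome with GATA6 in both lists at all 4 times, the median fold was 13.3, 14.2, 12.0 and 7.35 in order of time. Both 48 h lists lay below both 8 h lists at *Sox17* +72.7 kb, and at *Sox7* +58.1 kb the lists of these times overlapped.

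The third lasting site, *Sox7* −1.1 kb, is nearest to its TSS of the 3 and had the lowest folds of them. Fold was 5.67 and 4.65 after 2 h, 5.28 and 5.97 after 4 h, 4.51 and 5.79 after 8 h, and 4.55 and 3.54 after 48 h. These values overlap between 2 h and 8 h, and the 48 h lists held the lowest value. Local background there was 3.23 to 6.10 fragments, above the genome level, in all GATA6 lists.

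The other early sites had no summit in at least 1 of the 48 h lists. Near *Sox17*, the +22.7 kb site between the genes had folds of 4.96 and 9.27 at 2 h, 13.6 and 9.96 at 4 h and 13.7 and 15.9 at 8 h, and in replicate 1 of 48 h a fold of 13.0. In replicate 2 of 48 h a peak with a fold of 12.1 also spanned this site, but its summit lay 622 bp away, in the *Sox17* +23.4 kb site, so both 48 h lists covered +22.7 kb though it is not among the 3 sites counted. The +4.4 kb site, inside an exon of *Sox17*, had 4.59 and 4.74 at 2 h and 4.30 in 1 of the 4 h lists, and no GATA6 peak later. Its 2 h peaks did not overlap, with summits 946 bp apart, and are 1 site only through summits of other factors between them. Near *Sox7*, the +49.7 kb site in *Rp1l1*, 847 bp from the TSS of that gene, had folds of 12.0 and 11.0 at 2 h, 12.4 and 24.4 at 4 h and 5.38 and 6.02 at 8 h, and no peak at 48 h. The −7.0 kb site upstream of *Sox7* went from 11.1 and 7.10 at 2 h through 6.19 and 7.50 to 3.43 and 3.08 at 8 h and was also without a peak at 48 h. The −58.2 kb site, in an intron of *Pinx1*, a telomerase inhibitor, had 8.41 and 8.19 at 2 h, 3.95 and 5.32 at 8 h and no peak at 48 h. At all 3 of these *Sox7* sites the 8 h values lay below the 2 h values of the same site. By the record these 8 h values are those of 48 h, so all 3 sites then had GATA6 in both 48 h lists.

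Near *Sox18* no GATA6 site was in both lists at 48 h by the peak names, and 3 were by the record. The strongest at 2 h was −52.0 kb, between genes and nearest to *Oprl1*, an opioid-receptor-like gene, with folds of 12.0 and 6.54 at 2 h, 7.27 and 9.03 at 4 h, and 8.21 and 2.92 at 8 h. The +73.9 kb site, in introns of *Prpf6* and *Samd10*, had 6.66 and 8.19 at 2 h, 6.61 and 10.9 at 4 h and 6.68 and 9.03 at 8 h. The values of these times overlapped at both sites. The +12.1 kb and +90.4 kb sites had GATA6 at 2 h, with 4.37 and 8.59 and with 5.35 and 4.21, and in no later GATA6 list.

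A few sites had GATA6 late. In both 48 h lists but in neither 2 h list, GATA6 was found at 3 sites, *Sox17* −41.1 kb, *Sox17* −40.3 kb and *Sox7* +92.8 kb. That is 3 of the 7 sites with GATA6 in both 48 h lists, and 30.2% of 4169 such sites in the genome had no 2 h peak. By the record it was 4 of 16 sites, against 10.2% of 21214 in the genome. At *Sox17* −40.3 kb GATA6 fold was 4.03 and 2.74 at 8 h and 5.36 and 6.41 at 48 h, so both 48 h lists lay higher. The local background at this site was high, with 7.21 to 10.2 fragments over the GATA6 and SOX17 lists, so that the 48 h folds stand for 43 and 69 stacked fragments. *Sox7* +91.8 kb had a fold of 3.42 in 1 of the 2 h lists and 6.16 and 12.6 at 48 h.

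**Figure D3:**
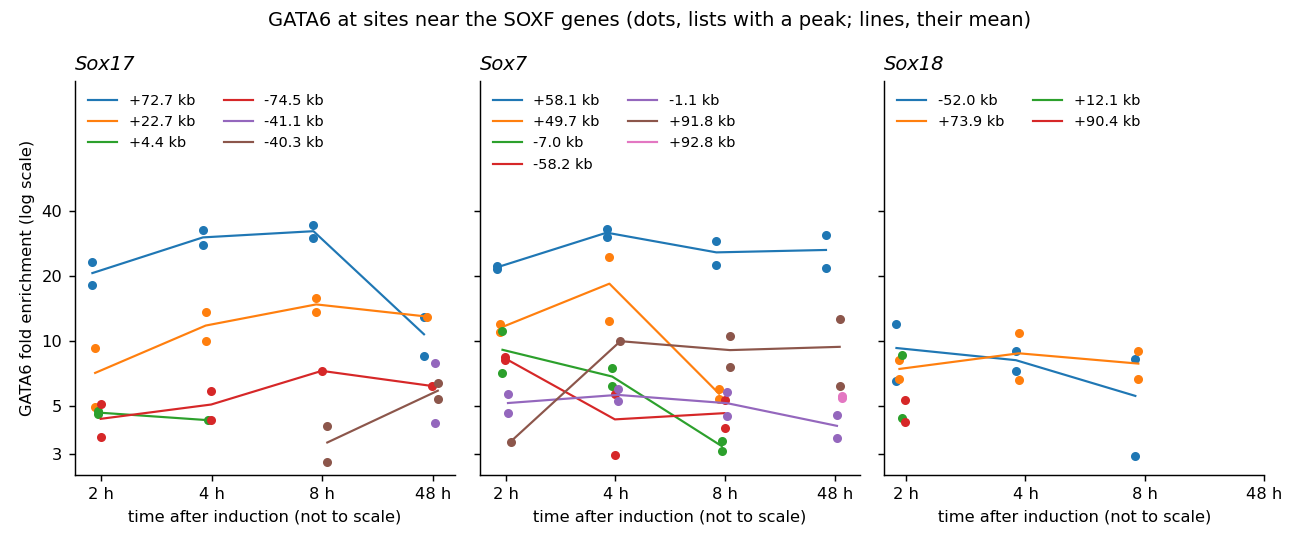
GATA6 fold enrichment at the summit (log axis) by time after induction (axis not to scale) at the 4 strongest 2 h sites of each gene and at all sites with GATA6 in both 48 h lists. Dots are lists with a peak, lines their mean, and a line ends where neither list has a peak. By the peak names *Sox7* +58.1 kb keeps a mean of 26.4 at 48 h, *Sox17* +72.7 kb has 32.3 at 8 h and 10.7 at 48 h, and no line near *Sox18* reaches 48 h.

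SOX17 itself was mapped at 24 h, which allows its own gene to be examined. Both lists held 12 peaks near *Sox17*, 9 and 17 near *Sox7*, and 4 and 4 near *Sox18*. All 3 genes had SOX17 in both lists, as did 75.3% of all genes, and *Sox17* and *Sox7* had more SOX17 peaks than 90.6% and 92.6% of genes, *Sox18* than 52.2%. There were 8 sites with SOX17 in both lists near *Sox17*, 8 near *Sox7* and 1 near *Sox18*.

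The strongest SOX17 binding near any SOXF gene was upstream of *Sox17* itself. At −74.5 kb, between genes around position 4571839 of chromosome 1, SOX17 fold was 27.8 and 33.7, a mean of 30.7 ± 4.22 (SD, n = 2), from 61 and 85 fragments. It ranked 308 of 27328 and 276 of 41979 peaks. GATA6 at the same site had 5.13 and 3.59 at 2 h and at most 7.27 in any list, though folds of different antibodies are not on 1 scale. The window of 201 bases around the SOX17 summit holds 1 SOX hexamer.

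Further SOX17 sites were shared with GATA factors. *Sox17* +74.7 kb had SOX17 folds of 14.2 and 15.9, with GATA6 absent at 2 h, at 4.81 and 6.57 at 4 h and at 7.85 and 12.5 at 8 h. *Sox17* +22.7 kb had 9.14 and 15.5, and *Sox17* +72.7 kb 6.58 and 13.3. *Sox7* +58.1 kb had 9.66 and 8.79, and *Sox7* +91.8 kb 8.24 and 8.41. Close to the start sites, *Sox17* +0.9 kb, inside an untranslated exon, had 6.72 and 5.28, and *Sox7* −1.1 kb had 7.24 and 5.91. Near *Sox18* the 1 site, −91.6 kb, had 7.16 and 11.0 and lies 130 bp from the TSS of *Myt1*, a neural zinc-finger gene.

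GATA6 summits after induction were at 8 of 8 SOX17 sites near *Sox17*, 4 of 8 near *Sox7* and 1 of 1 near *Sox18*. The total of 13 of 17 is close to the 80.7% of 19059 SOX17 sites in the genome that had GATA6 in a list after induction. The 4 without a GATA6 summit, *Sox7* −83.3, −49.9, +58.9 and +77.0 kb, lie at or in *Pinx1* and *Rp1l1* and had SOX17 folds between 3.39 and 7.90. Of these, +58.9 kb was spanned by broad GATA6 peaks with summits at *Sox7* +58.1 kb in 6 lists, those of 2, 4 and 8 h. Conversely, 6 of the 17 GATA6 2 h sites had SOX17 in both lists, against 23.6% in the genome.

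GATA4 at 24 h was found near *Sox17*, with 4 and 3 peaks, and near *Sox7*, with 4 and 2, but not near *Sox18*, with 0 and 0. Among all genes 33.6% had GATA4 in both lists. At *Sox7* +58.1 kb GATA4 fold was 19.1 and 23.4, which ranked 42 of 8427 and 13 of 4006 peaks. At *Sox17* −40.3 kb, the late GATA6 site, it was 13.4 and 11.6, at *Sox17* +22.7 kb 7.76 and 9.27, at *Sox17* +72.7 kb 7.51 and 4.58, and at *Sox7* +23.2 kb 4.68 and 6.80. By fold, GATA4 was therefore stronger in both lists at −40.3 kb than at +72.7 kb, whereas GATA6 at 8 h had the opposite order, with at most 4.03 against at least 29.9. Stacked GATA6 fragments had that order at 8 h, 35 and 26 against 102 and 110. At 48 h they did not, with 43 and 69 at −40.3 kb against 22 and 39 at +72.7 kb. The order of GATA6 thus depends on the time and on the measure. All 5 sites with GATA4 in both lists had GATA6 in both 8 h lists, as did 79.1% of 3127 GATA4 sites in the genome, and by the record 3 of 5 did, against 79.1%. Of the 17 GATA6 2 h sites, 3 had GATA4 in both lists, against 5.48% in the genome.

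**Figure D4:**
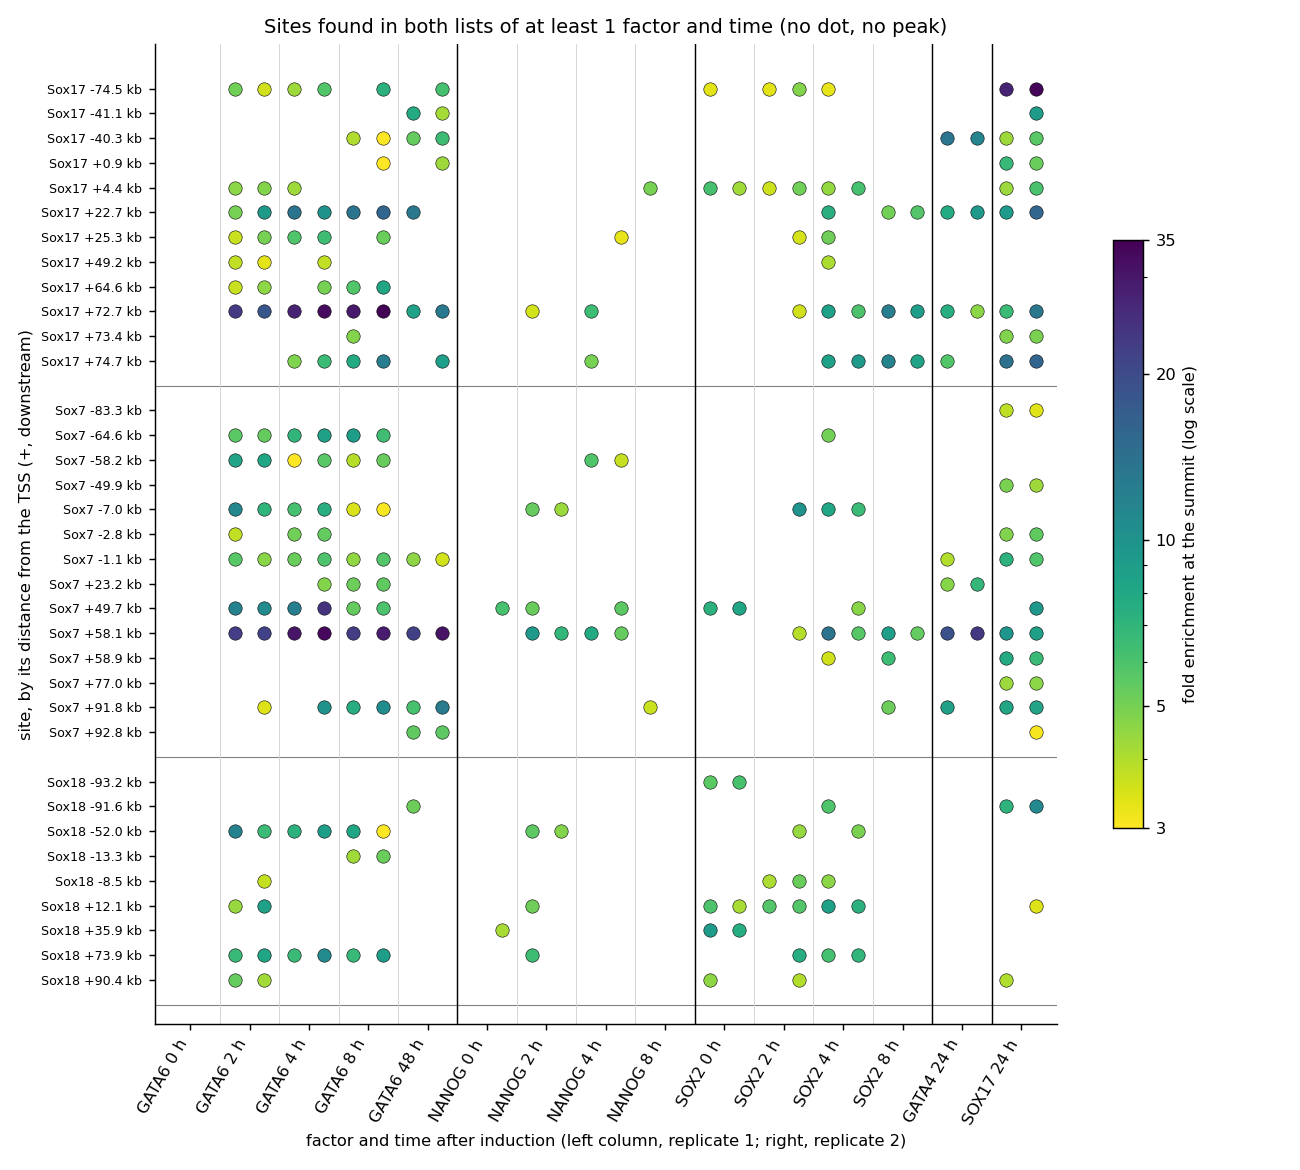
The 35 sites with a peak in both lists of at least 1 factor and time (rows, by distance from the TSS) in the 30 lists (columns, in pairs of replicates 1 and 2). Colour is the fold enrichment at the summit on a log scale, and no dot means no peak. *Sox17* +72.7 kb and *Sox7* +58.1 kb carry GATA6 in all 8 induced lists and SOX2 in both lists of 4 and 8 h, and the rows of *Sox18* have no dots under GATA4.

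NANOG was sparse near the SOXF genes in uninduced cells. Near *Sox17* the lists held 0 and 0 peaks before induction, then 2 and 0 after 2 h, 2 and 1 after 4 h, and 2 and 0 after 8 h. Near *Sox7* they held 0 and 1, 7 and 2, 3 and 3, and 1 and 1, and near *Sox18* 0 and 1, 3 and 1, 0 and 0, and 1 and 1. Both 2 h lists lay above both 0 h lists near *Sox7*, and the lists of these times overlapped or tied near *Sox17* and *Sox18*. Whole NANOG lists held 10693 and 16180 peaks at 0 h, 52285 and 26742 at 2 h, 14911 and 14528 at 4 h, and 5510 and 2255 at 8 h. Per 10000 peaks of a list the differences between 2 and 0 h were 0.191, 0.734 and 0.165 near *Sox17*, *Sox7* and *Sox18*. The exact permutation test over 2520 arrangements of 8 lists gave p = 0.771 for *Sox17*, 0.314 for *Sox7* and 0.343 for *Sox18*, adjusted 0.771, 0.514 and 0.514. None of these tests was called, and the differences between 2 and 0 h were 1, 4 and 1.5 peaks. None of the 3 genes had NANOG in both lists of 0 h, 2 of 3 did at each later time, and the shares of all genes over the 4 times were 49.8%, 79.1%, 57.4% and 13.5%.

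The few sites with NANOG in both lists after induction also carried GATA6. The share of all NANOG sites in the genome that carry GATA6 was not computed, so no result is read from this overlap. NANOG was in both 2 h lists at *Sox7* +58.1 kb, with folds of 9.22 and 6.91, at *Sox7* −7.0 kb, with 5.37 and 4.33, and at *Sox18* −52.0 kb, with 5.54 and 4.73. At 4 h it was in both lists at *Sox7* +58.1 kb (7.90 and 5.35) and −58.2 kb (5.90 and 3.73). No site had it in both lists at 8 h, when the NANOG lists were shortest. The 3 sites at 2 h are among the 17 GATA6 2 h sites, while 35.8% of GATA6 2 h sites in the genome had NANOG in both 2 h lists.

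SOX2 was found at few sites near the SOXF genes, and those at 0 h were not those at 8 h. Its peak numbers near *Sox17* were 3 and 1 before induction, 2 and 7 after 2 h, 7 and 4 after 4 h, and 3 and 3 after 8 h. Near *Sox7* they were 1 and 1, 0 and 4, 4 and 3, and 3 and 1, and near *Sox18* 5 and 3, 2 and 7, 6 and 4, and 1 and 0. The 2 h replicates were 4 or 5 peaks apart for each gene, and the exact permutation p was 0.429, 0.714 and 0.324 (adjusted 0.551, 0.771 and 0.514). All 3 genes had SOX2 in both lists at 0 h and at 4 h and 2 of 3 at 2 h and 8 h, against 79.1%, 79.6%, 79.0% and 56.5% of all genes.

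No count passed, and no site with SOX2 at 0 h had it at 8 h. Of the 9 sites with SOX2 in either 0 h list, 0 had it in either 8 h list, against 22.1% of 41353 such sites in the genome. All 7 sites with SOX2 in either 8 h list had none at 0 h, against 49.9% of 18259 in the genome. The SOX2 lists were shorter at 8 h, with 14055 and 11540 peaks against 31695 and 26826 at 0 h. Some of the 9 sites were weak, such as *Sox17* −77.1 kb, with 4 fragments in 1 list. These small numbers are therefore not read as a difference from the genome. At 0 h SOX2 was in both lists at *Sox17* +4.4 kb (6.19 and 4.27, from peaks that did not overlap), *Sox7* +49.7 kb (7.27 and 8.16), and *Sox18* +35.9 kb (9.18 and 7.61), +12.1 kb (5.95 and 4.13) and −93.2 kb (5.64 and 6.16). *Sox18* +12.1 kb still had it at 4 h with 8.56 and 7.30, and none at 8 h.

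The sites with SOX2 in both 8 h lists were 4, all of which had GATA6 in both 8 h lists, as did 75.7% of 7164 such sites in the genome, and by the record again 4 did, against 88.1%. *Sox17* +72.7 kb went from no SOX2 at 0 h and a fold of 3.60 in 1 of the 2 h lists to 8.60 and 6.03 at 4 h and 12.4 and 9.04 at 8 h. *Sox17* +74.7 kb had none at 0 and 2 h, then 8.56 and 9.30, and 11.6 and 8.44. Both sites thus held SOX2 in both lists at 4 and 8 h. *Sox7* +58.1 kb had 13.7 and 5.76 at 4 h and 8.93 and 5.41 at 8 h, and *Sox17* +22.7 kb had 5.08 and 5.78 at 8 h. SOX2 summits rest on few fragments, 10 to 21 at the *Sox17* +72.7 and +74.7 kb sites in the 4 and 8 h lists. At *Sox17* +72.7, +74.7 and +22.7 kb and at *Sox7* +58.1 kb SOX17 was also found, in both lists at 24 h. The share of such SOX2 sites in the genome with SOX17 was not computed, so no result is read from this overlap.

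GATA hexamers were counted around the summits. For the 17 GATA6 2 h sites the summit was that of the GATA6 peak with the lowest q-value at any time. For the genome it was that of a 2 h peak, so these windows were placed by different rules. Within 100 bp of the summit, 9 of the 17 GATA6 2 h sites held at least 1, and 54.3% of 44120 GATA6 2 h sites in the genome did. *Sox17* +72.7 kb holds 2, *Sox7* −64.6 kb 3, and the 2 lasting *Sox7* sites, −1.1 and +58.1 kb, hold 0. For SOX17 sites, 7 of 17 held a SOX hexamer within 100 bp of the summit, where 45.2% of SOX17 sites in the genome did. SOX hexamers lay near the GATA6 summit at 6 of the 17 GATA6 2 h sites, against 34.2% in the genome. Strong GATA6 folds near the SOXF genes thus occurred with and without these letters.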

How the data were processed

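CUT&RUN peak lists of 30 of the 57 samples were used, 2 in each of 15 groups. Not analysed here were 27 samples of histone marks, control antibody and blastocysts. As described in the methods, the authors aligned reads to mm10 with Bowtie2, removed blacklisted regions, kept duplicates, and called peaks for each library with MACS (narrow) against a rabbit anti-rabbit control. SAMtools and Picard are also named in the submitters' processing notes. Each deposited list has 10 columns. The fold is a ratio of the pileup to the local background at the summit, with the same small constant added to both, as the authors' caller wrote it. It is therefore lower than the plain ratio of pileup to background. The deposited −log10 p-value and −log10 q-value columns were used to recover pileups and to filter. All peaks have a q-value of at most 0.05. The deposited score repeats the q-value and was not used.

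Summits were counted within 100 kb of gene starts of GENCODE vM21 and joined at gaps of at most 250 bp (Python 3.11.15, pandas 2.3.3, scipy 1.17.1). Sequences were read from GRCm38.p6 with samtools 1.23.1 through pysam. All 775295 peaks on chromosomes 1 to 19, X and Y lay inside its chromosome lengths. Coordinates are 1-based. RefSeq promoter sequences of the 3 genes were not used here. Whole-number pileups and the local background were solved from fold and p-value, with a tolerance of 0.1%, for all 304 peaks near the genes outside the GATA4 lists, whose pileups were scaled. Read totals of the libraries, which the study lists, were not used here, and the smallest local background of a list stands for depth. Linking can join peaks that do not overlap, and of 101 pairs of a site and a group in both lists, 98 had overlapping replicate peaks.

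Groups follow the sample titles, except that the GATA6 lists of 4, 8 and 48 h follow the peak names inside the files. Peak numbers over time were compared by exact permutation tests, 1 for each of 3 factors and 3 genes. Folds were described and not tested. Named sites were, for each gene, the 4 with the highest GATA6 2 h fold in both lists, the 2 with the highest SOX17 fold, the site nearest the TSS, those with the highest SOX2 and NANOG fold at 0 h and those with GATA6 in both lists at 2, 4, 8 and 48 h. Late, GATA4, NANOG, SOX2 and SOX17 sites beyond these were chosen after their values were seen. By the rule for the nearest site, *Sox7* +0.1 kb (1 NANOG 8 h peak) and *Sox18* −0.9 kb (1 SOX2 4 h peak) are named here. The genes, lists and tests were chosen with earlier results of these data known. Counting, linking, pileups and the permutation test were tested on simulated data. A gene of the PrE list and 1 site sequence are not reported here.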

Additional observations from a re-analysis of the deposited data

How the results depend on the processing

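Peak numbers over time (difference between 2 and 0 h), site numbers, and the GATA6 sites kept from 2 to 48 h were recomputed under each alternative. Of the recomputed values, 117 neither changed sign nor side of the threshold, or stayed within 1.5 times. Differences that fell to 0 were counted among these, as for GATA6 near *Sox18* with the strongest 10000 peaks. A further 12, all of GATA6, came to pass the threshold in their test, and 7 site counts moved further than 1.5 times. The remaining 8, all of SOX2, changed direction. Each permutation p belongs to all time points of a factor together and not to the difference between 2 and 0 h alone. With −log10 q of at least 5 the GATA6 differences were 2.5, 6.5 and 3.5 peaks near *Sox17*, *Sox7* and *Sox18*. The GATA6 tests over 5 time points then passed the threshold (adjusted permutation p = 0.0476 each), and SOX2 turned to -0.5 near *Sox17* and -1 near *Sox18*. Taking at most the strongest 10000 peaks of a list leaves the shorter GATA6 lists of 0 h (86 and 882 peaks) and 48 h (5933 and 9767) whole. GATA6 near *Sox17* then rose by 1 from 0 to 2 h and by a further 5 from 2 to 48 h. Its test near *Sox17* over 5 time points passed (adjusted permutation p = 0.00952). Near *Sox7* and *Sox18* the GATA6 difference between 2 and 0 h was 2 and 0, and these tests did not pass (adjusted permutation p = 0.0714 and 0.333). SOX2 turned to -0.5 near *Sox7* and -1 near *Sox18*. Per 10000 peaks, GATA6 rose by 0.999 near *Sox17* and 1.14 near *Sox7* from 0 to 2 h, and by 6.80 and 4.28 from 2 to 48 h. Their tests over 5 time points passed (adjusted permutation p = 0.00476 each), and SOX2 near *Sox18* turned to -0.267. No SOX2 test passed under any of these settings. Leaving out 1 list at a time gave GATA6 differences of 7 to 7 near *Sox17*, 8 to 8 near *Sox7* and 5 to 6 near *Sox18*, NANOG differences of 0 to 2, 1.5 to 6.5 and 0.5 to 2.5, and SOX2 differences of 0 to 5, -1 to 3 and -2 to 3. SOX2 was -1 near *Sox7* and -2 near *Sox18* without replicate 2 of 2 h, which holds 52574 peaks, and -0.5 near *Sox18* without replicate 2 of 0 h.

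The GATA6 difference between 48 and 2 h, -1, -4 and -5 peaks near *Sox17*, *Sox7* and *Sox18*, was added after the data were seen. Of its recomputed values, 31 changed neither sign nor side of the threshold, a difference of 0 included, 2 came to pass, and 9 changed direction. By the sample record it was 1 near *Sox17* and 0.5 near *Sox7*. It was 2.5 near *Sox17* with −log10 q of at least 5, and 5, 2 and 0.5 with the strongest 10000 peaks. There the test over the 4 induced time points passed for *Sox17* (adjusted permutation p = 0.0286). Per 10000 peaks it was 6.80, 4.28 and 0.0491. Leaving out 1 list gave -2 to 0, -4 to -4 and -5.5 to -4.5, and without replicate 1 of 4 h *Sox7* and *Sox18* passed (adjusted permutation p = 0.0429). The GATA6 2 h sites kept at 48 h, 1, 2 and 0, became 3, 6 and 2 by the record, and near *Sox17* 3 with either list of a time point and 2 with summits linked at 500 bp. With −log10 q of at least 5 the sites numbered 17 near *Sox7* and 9 near *Sox18*, in place of 35 and 24. The cause of these changes was not tested beyond what each setting does to the lists.

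Replicate numbers are shared between time points but do not pair the lists. The differences between replicates 1 and 2 over all protein-coding genes correlated between time points of a factor by -0.170 to 0.0854 over 18 pairs of time points. With the replicate block the GATA6 differences were again 7, 8 and 5.5 peaks (permutation p = 0.15, 0.05 and 0.0333, adjusted 0.45, 0.225 and 0.225), those of NANOG 1, 4 and 1.5 and those of SOX2 2.5, 1 and 0.5, and no call changed. The GATA6 48 h lists are short and the 0 h lists shallow, so a missing peak there is a peak not called and not proof of absent binding. Background at 48 h was 0.928 and 1.22 fragments per base, against 1.34 and 1.11 at 2 h. Why the 48 h lists are short was not tested.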
